A study of Mus musculus with 32 samples.

Results

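The 10 genes described here encode heat shock and small heat shock proteins of the mouse spinal cord, together with partners that work with them. They were chosen by name and not by a measured threshold, and all 10 were found among the 42524 genes of the count table. Hspb1 (Hsp25), Hspb6, Hspb8 and Cryab (alpha-B crystallin) are small heat shock proteins. Hspa1a and Hspa1b encode the inducible Hsp70, Hspa8 encodes the constitutive Hsc70, and Hsph1 (Hsp110) is a large member of the Hsp70 family that acts as a nucleotide exchange factor. Dnajb1 (Hsp40) is a J protein that delivers clients to Hsp70, and Bag3 is a co-chaperone that links Hsp70 with small heat shock proteins, Hspb8 in particular.

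Expression was measured by RNA sequencing of the spinal cord in 8 groups of 4 mice, 32 in all. The groups were wild-type (WT) and G93A mice, left untreated or given the nitrone compound OKN-007, at 90 or 155 days. G93A mice carry a human SOD1 transgene with a mutation that causes amyotrophic lateral sclerosis (ALS), on a C57BL/6J background, and WT littermates served as controls. The transgene is present in many tissues and copies, so the mice model mutant SOD1 overexpression rather than ALS at large. OKN-007 was supplied in drinking water, and the labels give no dose. The 4 samples of a group are labelled as replicates and are treated here as separate mice. Where they were not, p-values would measure technical spread alone. The 90-day and 155-day mice were different animals. The labels read 90 days for the earlier time, and the study's methods give a slightly later age, so the label is used here as a group name.

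Small heat shock proteins hold unfolding proteins in a soluble state without using ATP, whereas the Hsp70 system binds and refolds them in cycles driven by ATP hydrolysis. J proteins start each cycle and nucleotide exchange factors such as Hsph1 and the BAG proteins end it. Many of these genes are transcribed by heat shock factor 1, which binds heat shock elements made of inverted repeats of a GAA unit. In the spinal cord, Hspb1 and Cryab are found in glia as well as in neurons, Cryab being abundant in oligodendrocytes, and Hspa8 is expressed at high levels in most cells.

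The DNA before the gene starts was examined for these elements, because it is the feature by which heat shock genes are usually recognised. RefSeq promoters on build GRCm38.p6, which run from 250 bases before to 50 bases after each annotated start, were found for 8 of the 10 genes, with Cryab and Hspa8 unmatched. A pair of GAA units pointing at each other or away from each other across 2 bases (GAANNTTC or TTCNNGAA, both strands) was present in 7 of these 8 genes. The same motif was present in 17.0% of all 27025 genes with a promoter entry and in 14 of 47 other chaperone and co-chaperone genes (29.8%). Dnajb1 was the gene without it in either of its promoter entries. An element of 3 units in a row, which contains the pair, was found in Hsph1 alone among the 8 genes, against 0.662% of all genes and 4 of the 47 other chaperone genes (8.51%). A match shows that these letters lie in the window and does not show binding.

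The windows that hold the motif are printed below so that the genes can be compared, 5′ to 3′ on the strand of the gene, with the motif in capitals. The first base of the annotated start is position 0, so that motifs at negative positions begin before it. The Hspb1 motifs begin at positions -117 and -97, that of Hspb6 at -120 from its second start, those of Hspa1a and Hspa1b at -104, and those of Hspb8, Hsph1 and Bag3 at 2, 15 and 42. The Hsph1 position is that of its 3-unit element, which begins at 36 from the start of its other promoter entry. Each Hsph1 entry holds 3 pairs in all, and only those within the element are printed.
Hspb1, chr5:135887772-135887871, plus strand: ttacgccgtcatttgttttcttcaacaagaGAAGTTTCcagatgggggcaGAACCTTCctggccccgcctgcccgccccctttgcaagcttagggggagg
Hspb6, chr7:30553151-30553230, plus strand: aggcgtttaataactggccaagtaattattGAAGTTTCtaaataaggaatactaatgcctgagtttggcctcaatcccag
Hspb8, chr5:116422849-116422924, minus strand: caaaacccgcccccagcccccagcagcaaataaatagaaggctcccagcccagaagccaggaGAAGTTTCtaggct
Hspa1a, chr17:34972211-34972290, minus strand: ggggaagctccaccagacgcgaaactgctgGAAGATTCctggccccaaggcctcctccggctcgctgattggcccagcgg
Hspa1b, chr17:34959293-34959372, minus strand: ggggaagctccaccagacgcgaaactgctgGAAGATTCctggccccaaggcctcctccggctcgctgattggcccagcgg
Hsph1, chr5:149636283-149636308, minus strand: gctgcagaTTCTGGAAAGTTCtcctc
Bag3, chr7:128523617-128523632, plus strand: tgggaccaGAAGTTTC

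Hspb1, Hspb6, Hspb8 and Bag3 share the same 8 letters, although those of Hspb8 and Bag3 lie after the annotated start. The Hspa1a and Hspa1b windows are identical. Over the full 300 bases the promoters of these neighbouring genes share 296 bases (98.7%), and their coding sequences share 1915 of 1923 aligned bases (99.6%). Their transcripts differ mainly after the coding sequence, where 71.8% of the aligned bases are identical. The way reads shared by both were assigned is not given in the sources used here, so the split between Hspa1a and Hspa1b is uncertain, and their summed counts were analysed as an alternative.

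On build GRCm38 (GENCODE M21, matched by Ensembl identifier), 3 of the genes lie on chromosome 5: Hspb1 at 135887919 to 135889563, Hspb8 at 116408491 to 116422864 and Hsph1 at 149614287 to 149636376. Chromosome 7 holds Hspb6 at 30552178 to 30555443 and Bag3 at 128523616 to 128546981. Chromosome 9 holds Cryab at 50751325 to 50756636 and Hspa8 at 40800984 to 40810087. Hspa1b, at 34956436 to 34959238, and Hspa1a, at 34969190 to 34972156, are neighbours on chromosome 17, and Dnajb1 lies on chromosome 8 at 83608193 to 83612653. Some of these genes overlap others: Hspb2 lies antisense to Cryab, Proser3 and Lin37 lie antisense at the ends of Hspb6, Gm20481 is antisense within Hspa1a, and 2610306O10Rik shares the strand of Bag3. The highest level of each in any mouse was 1.77 CPM (counts scaled to library size) for Hspb2, 4.62 for Proser3, 16.4 for Lin37, 0.317 for Gm20481 and 0.467 for 2610306O10Rik. Lin37 ran from 10.6 to 16.4 CPM, a range that Hspb6 in WT mice (7.46 to 15.9 CPM) shares in large part, and whether the reads were counted by strand is not given in the sources used here.

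Between 19701722 and 30138257 reads were counted on genes per mouse, and 3 counts in the smallest library correspond to 0.152 CPM. All 10 genes passed the filter on low counts in every fit, with raw counts from 93 (the lowest for Hspa1b) to 98959 (the highest for Hspa8). Xist reads outnumbered those of Y-linked genes in all 32 mice. The mouse Sod1 gene does not check the transgene, its median at 155 days being 248 CPM in the untreated G93A group and 264 CPM in the untreated WT group. Neuronal markers were plentiful, as were those of oligodendrocytes. One untreated WT mouse at 90 days (replicate 3) stood apart in Schwann cell genes, with a marker sum of 1909 CPM against a median of 302 CPM. In 3 of the 8 G93A mice at 155 days (replicates 9, 10 and 13) the mean log2 level of 6 caudal Hox genes was below 1, whereas WT mice at that time ranged from 2.70 to 4.10. The lower score was not confined to those 3 mice. The G93A mice at 155 days had a median of 2.28 (-0.19 to 2.82), below the lowest WT mouse, and the WT median was 3.94. Score and genotype therefore largely went together at that time. At 90 days 4 mice were below 1, untreated WT replicate 3 (0.79), WT OKN-007 replicate 8 (0.54) and G93A OKN-007 replicates 13 (0.06) and 14 (-0.08). Summed transcripts of a liver list, which holds Ttr, reached 206 CPM in 1 G93A mouse at 155 days against a median of 3.43 CPM. The caudal Hox genes mark the lower levels of the cord, and results without those 3 or those 4 mice are given where a call differs. Leaving out the 3 mice does not remove the difference in score at 155 days. With the score as a covariate, 5186 of all 18675 genes passed for genotype in the untreated groups of that time, against 7378 without it.

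Compared per kilobase of exon, Hspa8 was the most abundant of the 10 genes in untreated WT mice at 155 days (720 ± 20.5 CPM per kb, SD, n = 4). Cryab (113 ± 8.48) and Hsph1 (73.3 ± 11) followed. Hspb8 (22.2 ± 2.17) and Bag3 (20.5 ± 1.57) lay within 1 SD of each other, as did Dnajb1 (14.8 ± 0.793) and Hspb1 (12.1 ± 2.48) within about their combined spread. Hspb6 (4.16 ± 0.610), Hspa1a (3.06 ± 0.347) and Hspa1b (2.20 ± 0.892) were the lowest, the last pair again overlapping. In untreated G93A mice at 155 days Hspa8 was still the highest (671 ± 52.5 CPM per kb), and Cryab was at 187 ± 32.4. Hspb1 read 92.5, 156, 430 and 72.8 CPM per kb in the same mice (mean 188 ± 165), above Cryab in replicate 11 and below it in the other three.

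**Figure D1:**
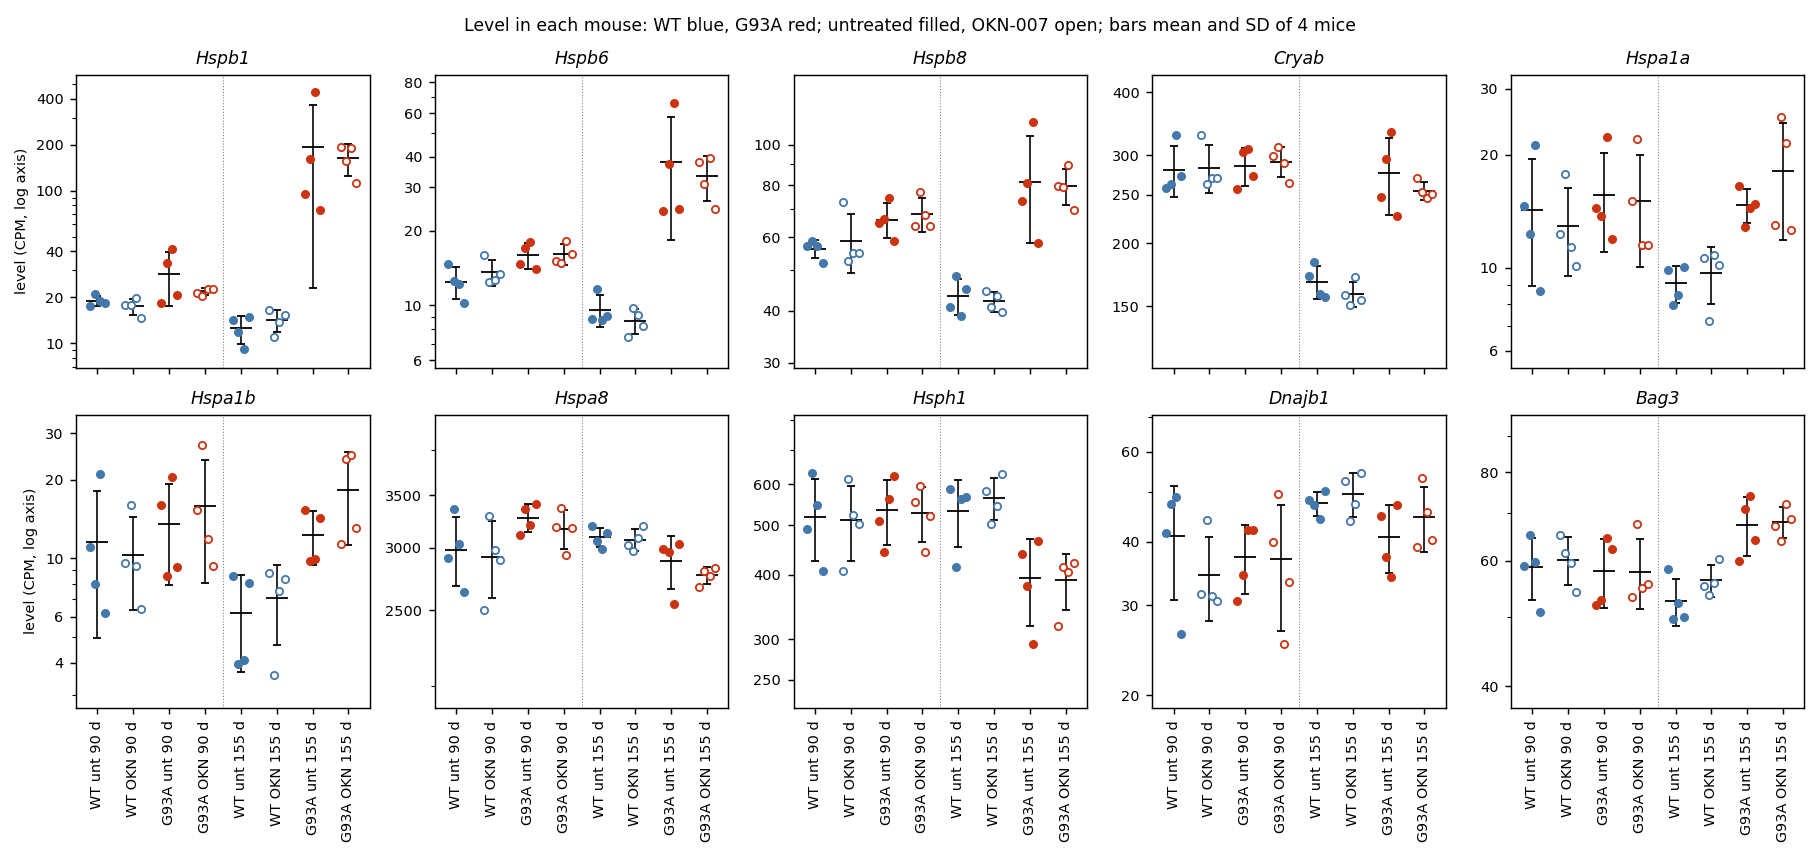
Level of each of the 10 genes in every mouse, in CPM on a log axis, by group (WT blue, G93A red, untreated filled, OKN-007 open); bars give the mean and SD of 4 mice. At 155 days the G93A mice lie above the WT mice without overlap in Hspb1, Hspb6, Hspb8, Cryab, Hspa1a and Hspa1b, and open and filled symbols of a genotype overlap in each panel. The share of all genes with such separation was not counted.

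The first question was which of these genes differed between G93A and WT cords late in disease. In untreated mice at 155 days, all 4 small heat shock proteins, both inducible Hsp70 genes and Bag3 were higher in G93A mice, Hsph1 was lower, and Hspa8 and Dnajb1 did not pass the test. The difference from WT in these 7 genes ranged from 15.8-fold for Hspb1 to 1.32-fold for Bag3. These were 8 of 10 genes past an adjusted p of 0.05 by edgeR's quasi-likelihood test with Benjamini-Hochberg adjustment over all genes, where 39.5% of all 18675 genes tested passed, and 7 of 10 were higher, against 21.3% of all genes. The median log2 fold change over the 10 genes was 0.75, against 0.00015 over all genes tested. Because many genes moved at this time, the count is to be read beside that background. The share of all genes whose groups did not overlap was not counted. In bulk tissue, a change in the number of cells of a type and a change in RNA per cell cannot be told apart.

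Hspb1, which also binds actin and is known to be induced in stressed neurons and reactive astrocytes, changed most. Its levels in untreated G93A mice at 155 days were 95.4, 160, 443 and 75 CPM, against 14.2, 11.8, 9.21 and 14.8 CPM in untreated WT mice. The lowest G93A mouse was therefore several times above the highest WT mouse, and the G93A mice differed widely among themselves. The log2 fold change was 3.99 (SE 0.43, adjusted p = 5.4e-07, edgeR). Without the mouse at 443 CPM (replicate 11) it was 3.18, the only mouse whose removal moved the fold by more than 1.5 times, and the call was kept.

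Hspb6 (Hsp20), a partner of other small heat shock proteins known best from muscle, was measured at 24, 37.5, 66.1 and 24.6 CPM in untreated G93A mice and at 8.82, 11.7, 8.74 and 9.05 CPM in untreated WT mice. The groups did not overlap, and replicate 11 was again the highest. The log2 fold change was 2.03 (SE 0.25, adjusted p = 3.5e-06, edgeR), or 4.08-fold.

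Hspb8, which forms a complex with Bag3 that directs misfolded proteins to autophagy, read 73.4, 80.8, 113 and 58.2 CPM in untreated G93A mice against 40.8, 48.3, 38.9 and 45.1 CPM in WT mice. It was 1.94-fold higher (log2 fold change 0.95, SE 0.14, adjusted p = 3.0e-05, edgeR). Cryab, the most abundant small heat shock protein in WT cord, read 248, 295, 334 and 227 CPM against 172, 183, 159 and 157 CPM. Its difference was 1.70-fold and among the most precisely measured (log2 0.76, SE 0.10, adjusted p = 4.3e-06, edgeR). In both genes every G93A mouse was above every WT mouse.

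The inducible Hsp70 genes differed less between the genotypes than Hspb1. Hspa1a was at 16.5, 12.8, 14.4 and 14.8 CPM in untreated G93A mice and at 9.85, 7.96, 8.43 and 10.03 CPM in WT mice (log2 0.74, SE 0.19, adjusted p = 0.0048, edgeR). Hspa1b was at 15.3, 9.75, 9.996 and 14.3 CPM against 8.60, 3.96, 4.08 and 8.07 CPM (log2 1.04, SE 0.31, adjusted p = 0.012, edgeR). In neither gene did the groups overlap. The summed counts of the pair gave a log2 fold change of 0.87.

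Hspa8, the constitutive Hsc70, and Hsph1 were not higher. Hspa8 was at 2992, 2961, 2548 and 3035 CPM in untreated G93A mice and at 3196, 3061, 2992 and 3132 CPM in WT mice, a log2 difference of -0.05 with a 95% interval of -0.19 to 0.08. Hsph1 was at 440, 380, 294 and 465 CPM against 588, 414, 562 and 566 CPM, and was 1.3-fold lower (log2 -0.38, SE 0.13, adjusted p = 0.030, edgeR). Its groups overlapped through 1 WT mouse (replicate 2), and the call was lost without any of 5 of the 8 mice. These were WT replicates 1, 3 and 4 (adjusted p = 0.086, 0.070 and 0.084, edgeR) and G93A replicates 10 and 11 (0.086 and 0.11). It was also lost when only the compared groups were fitted (0.067) and when the caudal Hox score was added to the fit (0.15).

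Of the co-chaperones, Bag3 was at 60.01, 71.0, 74.1 and 64.2 CPM in untreated G93A mice and at 58.4, 49.7, 52.4 and 50.1 CPM in WT mice. The groups did not overlap, and the log2 fold change was 0.40 (SE 0.07, adjusted p = 0.00017, edgeR). Dnajb1 was at 45, 37.3, 34.1 and 47.2 CPM against 48.2, 47.2, 44.2 and 50.3 CPM. Its log2 difference was -0.17 with a 95% interval of -0.40 to 0.07, so a fall larger than that was not seen.

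Mice given OKN-007 gave a second comparison of genotypes at 155 days with other animals. The same 7 genes were higher, Hsph1 was lower and Hspa8 and Dnajb1 did not pass, in a comparison where 41.5% of all genes passed and 23.3% were higher. Hspb1 was at 192, 156, 191 and 111 CPM in G93A mice given OKN-007 and at 16.5, 11.1, 13.8 and 15.4 CPM in WT mice given OKN-007, a 12.1-fold difference (log2 3.59, SE 0.42, adjusted p = 1.3e-06, edgeR). The corresponding log2 fold changes were 2.02 for Hspb6, 0.99 for Hspb8, 0.76 for Cryab, 0.97 for Hspa1a, 1.45 for Hspa1b and 0.35 for Bag3. Hsph1 was at 318, 414, 406 and 422 CPM against 582, 502, 545 and 629 CPM, without overlap (log2 -0.46, SE 0.13, adjusted p = 0.0098, edgeR). That call did not hold once the caudal Hox score was added (adjusted p = 0.069, edgeR). Hspa8 was lower in all 4 G93A mice given OKN-007 than in the WT mice, by a log2 difference of -0.08 that did not pass the test (adjusted p = 0.38, edgeR).

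Averaged over both treatments, with 8 mice per genotype, 7 of the genes were higher and 1 lower, in a contrast where 54.7% of all genes passed. The log2 fold changes were 3.79 for Hspb1 (95% interval 3.17 to 4.41), 2.02 for Hspb6 (1.65 to 2.4), 0.97 for Hspb8 (0.76 to 1.18) and 0.76 for Cryab (0.62 to 0.90). They were 1.24 for Hspa1b (0.79 to 1.70), 0.86 for Hspa1a (0.57 to 1.14), 0.37 for Bag3 (0.27 to 0.48) and -0.42 for Hsph1 (-0.62 to -0.22). In 6 of the 7 higher genes all 8 G93A mice exceeded all 8 WT mice, and in Bag3 7 of 8 did. How common such separation was over all genes tested was not counted.

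**Figure D2:**
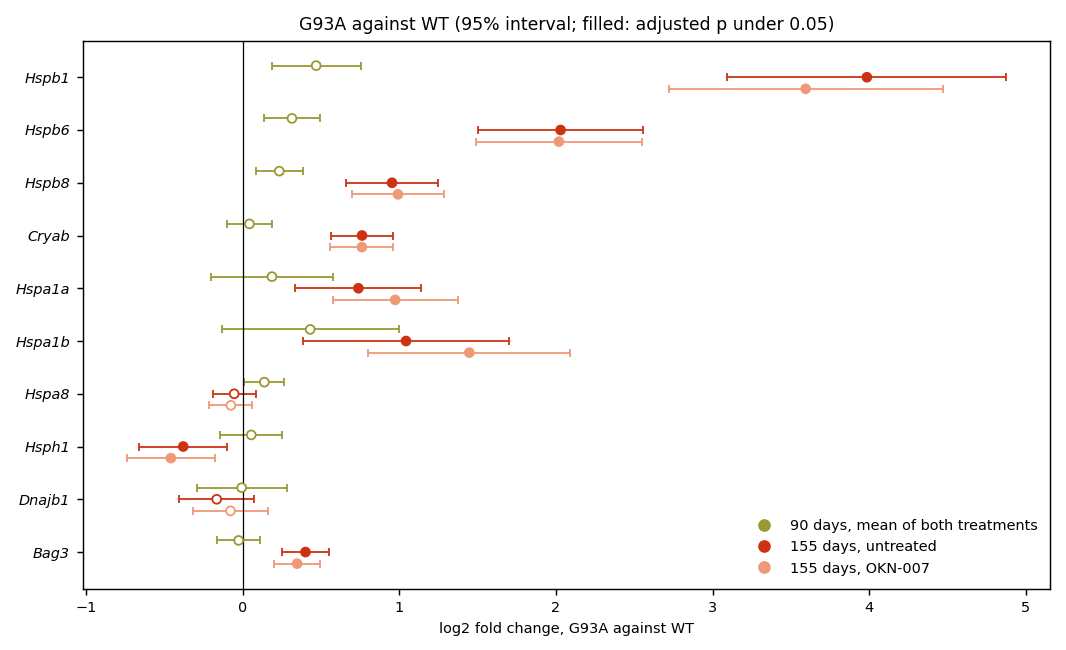
Log2 fold change of G93A against WT for the 10 genes (x axis) with its 95% interval, at 90 days (mean of both treatments) and at 155 days in untreated and OKN-007 mice; filled points had an adjusted p under 0.05. The small heat shock proteins are ordered from 3.99 for Hspb1 to 0.76 for Cryab in untreated mice at 155 days, and all points at 90 days lie below 0.5.

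Markers of several cell types moved between the same groups. Summed microglial markers had a median of 1820 CPM (1346 to 2410) in the 8 G93A mice at 155 days and 337 CPM (303 to 384) in the 8 WT mice, and all 8 markers were higher in untreated mice. The astrocyte sum was 3918 CPM (3336 to 4082) against 2519 CPM (2321 to 2729), with 6 of 8 markers higher. Motor neuron markers fell to 159 CPM (112 to 175) from 313 CPM (267 to 334), with 7 of 8 lower, and general neuronal markers to 2099 CPM (1778 to 2770) from 3589 CPM (3381 to 3980), with all 8 lower. The oligodendrocyte sums of the genotypes overlapped (20333 to 25287 against 20526 to 23894 CPM). Smooth muscle and pericyte markers, in cells where Hspb1, Hspb6 and Cryab are also expressed, had medians of 238 and 205 CPM, and skeletal muscle markers 67.6 and 85.8 CPM. The sum for fibroblasts and meninges had a median of 97.6 CPM (88.1 to 122) against 82.9 CPM (71.4 to 85.8), without overlap, with 3 of 7 tested markers higher in untreated mice. That list holds Pdgfra and the skeletal muscle list holds Pvalb, and the part of single genes in these sums is not given here. Immediate early genes, which respond to handling as well as to activity, had a median sum of 167 CPM in the G93A mice and 122 CPM in the WT mice. Untreated G93A replicate 11 was the mouse with the highest Hspb1, Hspb6, Hspb8 and Cryab. Among the 155-day mice it also had the highest microglial, astrocyte, oligodendrocyte, smooth muscle and pericyte, and fibroblast sums. The part of these cell types in the differences was not tested.

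At 90 days the question was whether the differences were already present. None of the 10 genes passed the test in untreated mice or in mice given OKN-007, where 0% of all 18899 genes passed in each case (1126 and 747 genes at an unadjusted p under 0.05). In the mean of both treatments 0 of 10 passed, where 0.0265% of all genes did. There 4 of 10 had an unadjusted p under 0.05 (edgeR), as did 1250 of the 18899 genes tested. DESeq2 gave 0 of 10 in each of the 3 comparisons, with 16, 3 and 66 genes called over the whole table. Without the 4 mice with low caudal Hox genes 0 of 10 passed in each.

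Hspb1 at 90 days was at 18.3, 33.8, 41.7 and 20.6 CPM in untreated G93A mice and at 17.6, 20.9, 18.9 and 18.4 CPM in untreated WT mice. A pair of G93A mice (replicates 10 and 11) stood above all WT mice, and the other two lay among or beside them. In mice given OKN-007 the G93A values were 21.3, 20.5, 22.7 and 22.8 CPM and the WT values 17.7, 17.8, 19.7 and 14.6 CPM, without overlap. Over both treatments the log2 difference was 0.47 (95% interval 0.18 to 0.75, unadjusted p = 0.0028, adjusted p = 0.36, edgeR). Without the filter on low counts, the difference of 0.45 passed with an adjusted p of 0.011 (edgeR), in a fit where 110 of all 41945 genes passed.

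Hspb6 and Hspb8 gave smaller differences that did not pass, 0.31 (0.13 to 0.50, adjusted p = 0.33, edgeR) and 0.23 (0.08 to 0.38, adjusted p = 0.43). Hspb6 ranged from 14.1 to 18.3 CPM in the 8 G93A mice (median 15.6) and from 10.3 to 15.9 in the 8 WT mice (median 12.6). For Cryab the 90-day difference was 0.04 (-0.10 to 0.19), and for Bag3 -0.03 (-0.17 to 0.11). Hspa8 was 0.14 higher in G93A mice (0.01 to 0.26, adjusted p = 0.70, edgeR), the opposite side of 0 from its 155-day value. Hsph1 and Dnajb1 differed by 0.05 (-0.14 to 0.25) and -0.01 (-0.29 to 0.28). The intervals of Hspa1a (-0.20 to 0.58) and Hspa1b (-0.14 to 1.0) were the widest, since single mice of either genotype reached over 20 CPM.

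The difference between the genotype effects at 155 and 90 days was tested directly in a fit of all 32 mice. It passed for 8 of the 10 genes, in a contrast where 37.5% of all 19829 genes tested passed. The genotype effect was larger at 155 days by a log2 value of 3.30 for Hspb1 (SE 0.34, adjusted p = 3.7e-09), 1.69 for Hspb6 (SE 0.21, adjusted p = 1.1e-07), 0.72 for Hspb8 (SE 0.13, adjusted p = 5.5e-05) and 0.70 for Cryab (SE 0.10, adjusted p = 1.6e-06, edgeR). It also rose for Bag3 by 0.38 (SE 0.09, adjusted p = 0.00082, edgeR). It was lower for Hsph1 by a log2 value of -0.50 (SE 0.15, adjusted p = 0.0078) and for Hspa8 by -0.23 (SE 0.08, adjusted p = 0.024, edgeR), although Hspa8 passed in neither time alone. The Hspa8 call was lost without 1 mouse, untreated WT replicate 4 at 90 days (adjusted p = 0.066). Hspa1a passed narrowly (0.65, SE 0.25, adjusted p = 0.038, edgeR), while Hspa1b (0.79, SE 0.38, adjusted p = 0.10) and Dnajb1 (-0.14, SE 0.17, adjusted p = 0.57) did not. The Hspa1a call was lost for the summed Hspa1a and Hspa1b counts (0.062), with the caudal Hox score in the fit (0.14) and in 13 of the 32 fits that left out a mouse, with adjusted p from 0.051 to 0.089. At 90 days these mice were untreated WT replicates 1 and 3, WT OKN-007 replicate 6, untreated G93A replicates 9 and 12 and G93A OKN-007 replicates 15 and 16. At 155 days they were untreated WT replicates 2 and 3, WT OKN-007 replicate 6, untreated G93A replicate 9 and G93A OKN-007 replicates 14 and 15. Hspa1b passed without G93A OKN-007 replicate 14 at 90 days (adjusted p = 0.035). With the untreated mice alone in the contrast, Hsph1 (-0.46, adjusted p = 0.12), Hspa8 (-0.23, adjusted p = 0.15) and Hspa1a (0.57, adjusted p = 0.26) did not pass. Without the 4 mice at 90 days with low caudal Hox genes Hsph1 (-0.43, adjusted p = 0.059) and Hspa8 (-0.19, adjusted p = 0.13) did not pass either, and Hspa1b did (0.95, adjusted p = 0.041, edgeR).

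WT mice themselves differed between the times, in a contrast where 44.2% of all genes passed. Cryab was lower at 155 days, with values of 151 to 183 CPM (median 158) against 258 to 329 CPM (median 270), a 1.73-fold fall (log2 -0.79, SE 0.07, adjusted p = 6.5e-09, edgeR). Hspb8 fell by a log2 value of -0.43 (adjusted p = 0.00036) and Hspb6 by -0.51 (adjusted p = 0.0060, edgeR). Hspa1a (-0.53, adjusted p = 0.016) and Hspa1b (-0.72, adjusted p = 0.031) were also lower, and Dnajb1 was higher (0.37, adjusted p = 0.015, edgeR). The calls of Hspa1a, Hspa1b and Dnajb1 each rested on single mice, and Hspa1b was lost without the 4 mice at 90 days with low caudal Hox genes (adjusted p = 0.061, edgeR). Without untreated WT replicate 3 at 90 days the adjusted p was 0.065 for Hspa1a and 0.14 for Hspa1b, without WT OKN-007 replicate 6 at 90 days 0.053 and 0.093, and Dnajb1 had 0.078 without untreated WT replicate 4. Hspa1b was also lost without untreated WT replicates 2 or 3 or WT OKN-007 replicate 6 at 155 days (adjusted p = 0.066, 0.061 and 0.067). Hspb1 (-0.45, adjusted p = 0.14), Bag3 (-0.13, adjusted p = 0.094), Hspa8 (0.06, 0.38) and Hsph1 (0.09, 0.52) did not pass. Bag3 did pass without untreated WT replicate 4 at 90 days, untreated WT replicate 1 at 155 days or WT OKN-007 replicate 8 at 155 days (adjusted p = 0.0094, 0.031 and 0.044), with log2 values of -0.20 to -0.16.

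In G93A mice the levels of Cryab at 155 days, 227 to 334 CPM (median 252), stood near those of either genotype at 90 days, so that its genotype difference at 155 days sat beside a lower WT level. Hspa1a means were 15.3 and 16.4 CPM in G93A mice at 90 and 155 days, and 13.5 and 9.38 CPM in WT mice. For Hspa1b they were 14.7 and 15.3 CPM in G93A mice, and 10.9 and 6.62 CPM in WT mice. The 155-day differences of this pair likewise sat beside a lower WT level. For Hspb8 both genotypes moved, with means of 67.1 and 80.5 CPM in G93A mice at 90 and 155 days, and 57.6 and 42.7 CPM in WT mice. The oligodendrocyte marker sum also fell in WT mice, from a median of 37590 CPM at 90 days to 22283 CPM at 155 days. In G93A mice it fell as well, from a median of 35773 to 22192 CPM. The caudal Hox score rose in WT mice from a median of 2.14 to 3.94 and went from 2.73 to 2.28 in G93A mice. With that score in the fit, Hspa1a and Hspa1b no longer passed between the times in WT mice (adjusted p = 0.10 and 0.18, edgeR). Age, time of collection and sequencing cannot be told apart between the 2 sets of mice.

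Treatment with OKN-007 was compared with no treatment within each genotype and time. None of the 10 genes passed in G93A or WT mice at 155 days, nor did the genotype by treatment interaction, and 0% of all genes passed in each of these comparisons. At an unadjusted p under 0.05 there were 755, 549 and 437 genes over the whole table and 0 of the 10 genes, and DESeq2 called 0, 2 and 2 genes, none of the 10. At 90 days 0% of all genes passed in G93A mice, in WT mice and for the interaction (1050, 769 and 531 genes unadjusted), and DESeq2 called 0 in each. Of the 10 genes, Hspb1 in G93A mice alone had an unadjusted p under 0.05 at 90 days.

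In G93A mice at 155 days the untreated and OKN-007 values of Hspb1 overlapped, and the log2 difference was -0.23 with a 95% interval of -1.0 to 0.53, so the 8 mice left room for a change of that size in either direction. Without untreated replicate 11 the difference turned to 0.57, and without the 3 mice with low caudal Hox genes it was -0.75, neither passing the test (adjusted p = 0.75 and 1.0, edgeR). The interval was narrower for Cryab (-0.31 to 0.09), Hspb8 (-0.31 to 0.27), Bag3 (-0.12 to 0.17), Hspa8 (-0.19 to 0.08), Hsph1 (-0.29 to 0.27) and Dnajb1 (-0.11 to 0.37). Hspb6 had an interval of -0.66 to 0.31. Hspa1b was at 11.3, 24, 24.8 and 13.1 CPM with OKN-007 and at 15.3, 9.75, 9.996 and 14.3 CPM without it (log2 0.57, SE 0.30, unadjusted p = 0.070, adjusted p = 1.0, edgeR). Hspa1a read 13, 25.2, 21.5 and 12.6 CPM with OKN-007 and 16.5, 12.8, 14.4 and 14.8 CPM without it (log2 0.31, 95% interval -0.08 to 0.70). In both genes replicates 14 and 15 were above every untreated mouse and the other two mice were not.

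In G93A mice at 90 days Hspb1 was lower with OKN-007 by a log2 value of -0.41 (95% interval -0.81 to -0.01, unadjusted p = 0.045, adjusted p = 0.84, edgeR). The 4 treated mice lay between 20.5 and 22.8 CPM, inside the range of the untreated mice, of which the higher pair read 33.8 and 41.7 CPM. The interaction of genotype and treatment for Hspb1 was -0.30 (-0.87 to 0.27). In WT mice the OKN-007 differences of the 10 genes ranged from -0.24 for Dnajb1 to 0.14 for Hspb6 at 90 days and from -0.17 for Hspb6 to 0.17 for Hspa1b at 155 days.

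**Figure D3:**
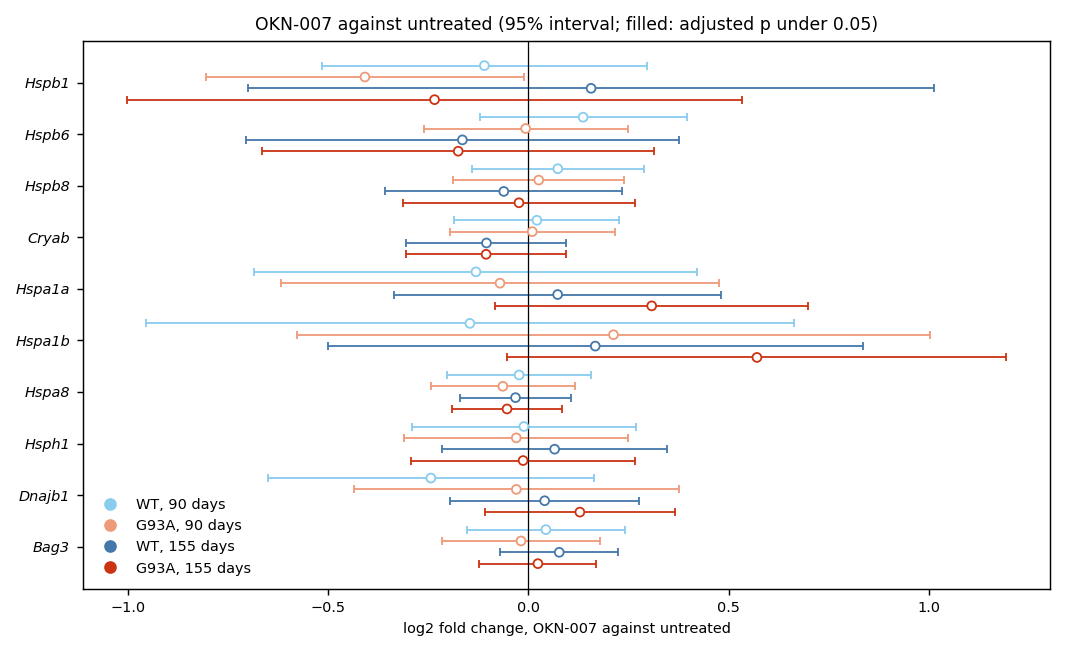
Log2 fold change of OKN-007 against untreated mice for the 10 genes (x axis) with its 95% interval, in WT and G93A mice at 90 and 155 days; filled points would mark an adjusted p under 0.05 and there are none. The intervals are widest for Hspb1 and Hspa1b, and the Hspb1 interval in G93A mice at 90 days runs from -0.81 to -0.01.

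Since mice of a group differed from each other, it was asked which of the genes varied together between mice once the group means were removed. The 32 mice gave 45 pairs of genes, tested by permuting mice within groups (100000 resamples, two-sided, adjusted over the 45 pairs). By Pearson's r 14 pairs passed, 13 of them positive, and 11 passed by both r and Spearman's rho. The pairs fell within 2 sets. All 6 pairs among Hspb1, Hspb6, Hspb8 and Cryab passed by r (0.62 to 0.80), and 7 of 10 pairs among Hspa1a, Hspa1b, Hspa8, Hsph1 and Dnajb1 passed (r over all 10 from 0.33 to 0.92). Of the 20 pairs between the sets 1 passed, Hspb6 with Hsph1, and it was negative. Bag3 passed with none of the other 9 genes, with r from 0.20 to 0.43. Over the 90-day mice its r with Hspa1a, Hspa8, Hsph1 and Dnajb1 was 0.58, 0.38, 0.56 and 0.73. Over the 155-day mice it was -0.05, -0.23, -0.11 and -0.38. With Hspa1b and the small heat shock proteins r was positive at both times. These differences between times were not tested. How often pairs of other expressed genes would pass was not counted. Genes outside the 10 ran closer to Hspb1 on this scale (Cyp2d22, r = 0.918) than any of the 10 did (Hspb6, r = 0.78).

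Among the small heat shock proteins, Hspb6 and Hspb8 were closest (r = 0.80, rho = 0.69, permutation adjusted p = 0.0019 and 0.0031). Without the 2 mice farthest out in Hspb6 r was 0.72, and it was 0.61 over the 90-day and 0.87 over the 155-day mice. Hspb1 followed Hspb6 with r = 0.78 and rho = 0.50 (permutation adjusted p = 0.018 and 0.073). It followed Hspb8 with r = 0.76 and rho = 0.56 (permutation adjusted p = 0.0048 and 0.028). The 2 mice farthest out in Hspb1 carried much of its relations. Without them r fell to 0.52 with Hspb6, 0.47 with Hspb8 and 0.39 with Cryab, and r was 0.45, 0.35 and 0.40 over the 90-day mice. Cryab with Hspb1 and with Hspb6 passed by r (permutation adjusted p = 0.024 and 0.034) but not by rho (0.12 for each).

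In the Hsp70 set, Hspa1a and Hspa1b were closest (r = 0.92, rho = 0.92), a pair that shares reads as described above. Hspa8 and Hsph1 (r = 0.81, rho = 0.81), Hspa1a and Dnajb1 (r = 0.76, rho = 0.72), Hsph1 and Dnajb1 (r = 0.74, rho = 0.77) and Hspa8 and Dnajb1 (r = 0.72, rho = 0.67) all passed by both measures. These relations were alike at both times: r for Hspa8 and Hsph1 was 0.86 over the 90-day and 0.79 over the 155-day mice, and for Hsph1 and Dnajb1 0.82 and 0.69. Hspb6 and Hsph1 ran in opposite directions (r = -0.63, rho = -0.62, permutation adjusted p = 0.0054 and 0.010), more so at 155 days (-0.84) than at 90 days (-0.32). That difference between times was not tested. Cell composition also varied between mice of a group, and its part in these relations was not tested.

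**Figure D4:**
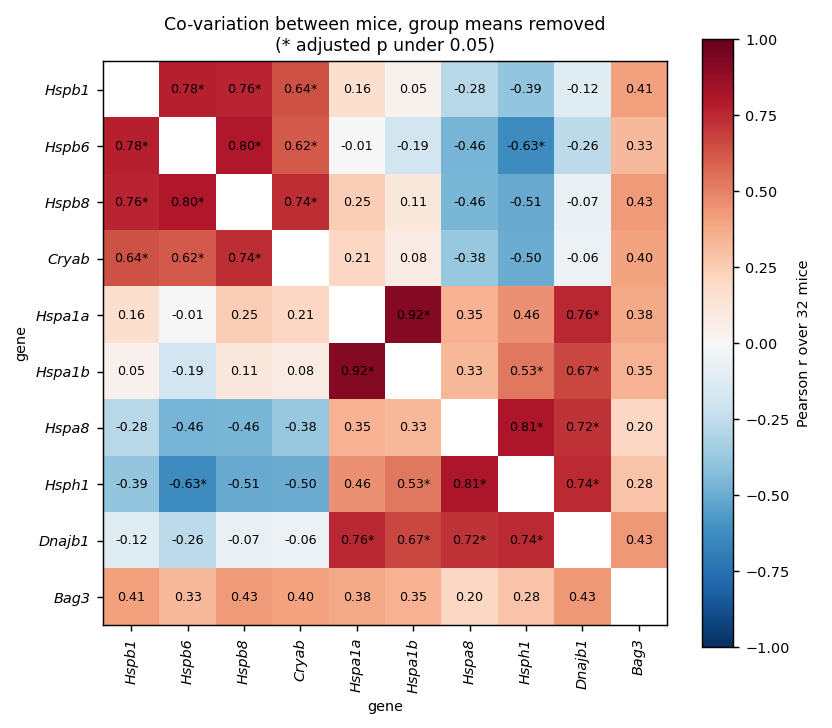
Pearson r between each pair of the 10 genes over 32 mice, on log2 levels with the group means removed (both axes list the genes; an asterisk marks an adjusted p under 0.05). The 4 small heat shock proteins form a block of positive values from 0.62 to 0.80, the Hsp70 genes with Dnajb1 form another, and Bag3 has no asterisk with any gene.

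The genes whose levels ran most like Hspb1 were sought among 14447 expressed genes outside the set, by Pearson r of log2 levels, as a description. Over all 32 mice these were Nupr1 (0.988), a stress-induced nuclear protein, Prdx6 (0.988), a peroxiredoxin, Glipr2 (0.982), Ctsl (0.982), a lysosomal protease, and Slc39a1 (0.982), a zinc transporter. The 32 points share the genotype and time groups. With the group means removed they were Cyp2d22 (0.918), the metallothionein Mt1 (0.912), Nupr1 (0.902), Ctsl (0.902) and Sat1 (0.898), an enzyme of polyamine breakdown. For Hspa1a the closest over all mice were Manf (0.801), Creld2 (0.780) and Sdf2l1 (0.758), all genes of the endoplasmic reticulum stress response, then Psph (0.748) and Ctu1 (0.732). With the group means removed Ccdc117 (0.699) and Manf (0.684) led, followed by Ippk (0.672), Dedd2 (0.668) and Swt1 (0.667).

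The remaining chaperones and co-chaperones were taken as a list of 58 genes, of which 56 were tested at 155 days. In untreated mice, where 39.5% of all genes passed, 7 of the 56 were higher and 15 lower in G93A, 34 did not pass, and the median log2 fold change was -0.10, against 0.00015 over all genes. With OKN-007, where 41.5% of all genes passed, 6 were higher and 19 lower, and at 90 days 0 of 55 passed in the mean of both treatments (2 at an unadjusted p under 0.05). No gene of the list passed in the remaining 90-day comparisons, with OKN-007 or in the interactions, where 0 to 2 had an unadjusted p under 0.05. By family, 3 of 4 tested small heat shock proteins, 2 of 9 Hsp70 genes, 1 of 3 Hsp90 genes and 1 of 10 chaperonin genes were higher in untreated G93A mice. Of the genes lower, 8 of 15 were co-chaperones, 4 of 11 J proteins, 2 of 9 Hsp70 genes and 1 of 4 heat shock factor genes.

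The small heat shock proteins of this list were scarce. Hspb3 averaged 0.709 CPM in the untreated G93A group and 0.104 CPM in the WT group (adjusted p = 0.00015, edgeR), Hspb7 0.552 and 0.0880 CPM (adjusted p = 0.026), and Hspb2 0.672 and 0.291 CPM (adjusted p = 0.019). The WT means of Hspb3 and Hspb7 are below 0.152 CPM, so no fold is given for them, and Hspb2 lies antisense to the far more abundant Cryab. Hspa2, an Hsp70 known from testis, was at 61.9 ± 10.5 CPM (SD, n = 4) against 41.8 ± 5.85 CPM (log2 0.61, SE 0.10, adjusted p = 0.00014, edgeR). Hspa1l, a neighbour of Hspa1a, averaged 1.52 against 0.869 CPM (log2 0.84, adjusted p = 0.019, edgeR).

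The genes that fell most were Hspa12a, an atypical Hsp70, at 112 ± 22.1 CPM against 196 ± 28.3 CPM in WT mice (log2 -0.75, SE 0.13, adjusted p = 0.00020, edgeR), and Hspa4l, a relative of Hsph1, at 180 ± 33.1 against 299 ± 61.5 CPM (log2 -0.68, SE 0.14, adjusted p = 0.0010, edgeR). The heat shock factor Hsf4 (log2 -0.51), the co-chaperone Bag2 (-0.43) and the J protein Dnaja4 (-0.40) were also lower. General neuronal markers were lower in the same mice, as given above, and their part in these falls was not tested. Between 90 and 155 days in WT mice 30 of the 56 genes were higher and 9 lower, where 44.2% of all genes passed.

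**Figure D5:**
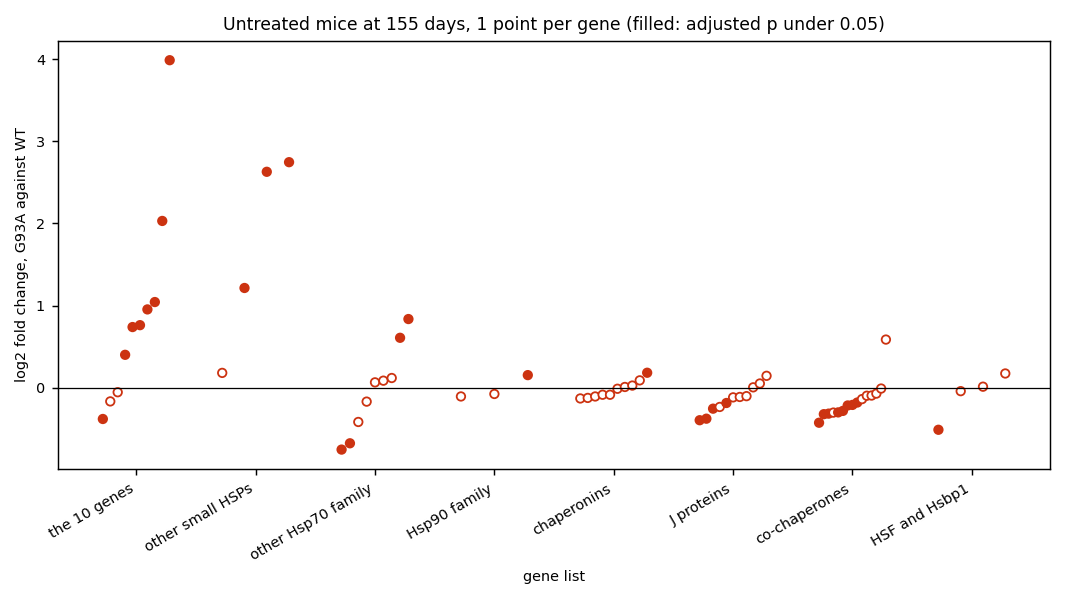
Log2 fold change of G93A against WT in untreated mice at 155 days, 1 point per gene, for the 10 genes and for 7 lists of other chaperone genes (filled, adjusted p under 0.05). Hspb1 has the highest point of the 10 genes at 3.99. In the 7 other lists all filled J proteins and co-chaperones lie below 0, down to -0.43 for Bag2.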

How the data were processed

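The deposited table holds raw counts per gene and mouse, not normalized. Per the study's methods the authors trimmed reads with Trimmomatic, aligned them with STAR and counted them with HTSeq on GENCODE M10 (GRCm38). The submitters' processing notes name featureCounts and GRCm39 instead. Of the 42524 genes 41203 (96.9%) were matched to GENCODE M21, and 1306 of the other 1321 carry identifiers numbered above any in it. Libraries were TruSeq Stranded mRNA from 25 mg of cord, in the authors' protocol. Replicate numbers were those of the sample titles.

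Counts were fitted in edgeR 4.0.16 (R 4.3.3; filterByExpr, TMM, quasi-likelihood tests), for the 16 mice of each time as 4 groups and for all 32 mice as 8 groups, without covariates. An adjusted p under 0.05 over all genes was called. Levels are TMM-scaled CPM, and log2 levels used a pseudocount of 0.5 CPM. Standard errors came from the F statistic. Alternatives were DESeq2 1.42.0, its size factors, no low-count filter, the compared groups alone, all mice in one fit, the replicate block, the Hox score as a covariate, the summed Hspa1 pair and leaving out each mouse. The fit was tested on simulated data. All 10 genes are named, together with the 5 highest and 5 lowest called list genes in untreated mice at 155 days and the 5 genes most like Hspb1 and Hspa1a. The genes, lists and tests were chosen with earlier results of these data known.

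Mice of the 2 times with the same number were different animals, with correlations of their deviations from -0.21 to 0.38, so numbers were not treated as pairs. No libraries of a group agreed within sampling noise.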

Additional observations from a re-analysis of the deposited data

Results flagged for a closer look

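In 8 of the 80 groups of 4 mice (10 genes in 8 groups), 1 mouse stood apart from the other 3 by Dixon's criterion, where chance gives about 4. In WT mice at 155 days, untreated replicate 2 had the highest Hspb6 (11.7 CPM, next 9.05) and the lowest Hsph1 (414 CPM, next 562). In untreated G93A mice at 155 days, replicate 11 had the lowest Hspa8 (2548 CPM, next 2961), and in G93A mice given OKN-007 replicate 13 had the lowest Hsph1 (318 CPM, next 406). In WT mice given OKN-007 at 90 days, replicate 5 had the highest Hspb8 (73.0 CPM, next 55.0) and Cryab (329 CPM, next 270), and replicate 6 the highest Dnajb1 (44.1 CPM, next 31.6). Replicate 5 also had the highest oligodendrocyte marker sum of that group (53601 CPM, next 37825), and its part in these values was not tested. In G93A mice given OKN-007 at 90 days, replicate 14 had the highest Bag3 (67.7 CPM, next 55.7).

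The genotype effect differed between 155 and 90 days in 8 genes by edgeR's test of that difference. The log2 differences were 3.30 for Hspb1, 1.69 for Hspb6, 0.72 for Hspb8, 0.70 for Cryab, 0.65 for Hspa1a and 0.38 for Bag3, and -0.23 for Hspa8 and -0.50 for Hsph1.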

How the results depend on the processing

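Over all results and alternatives, 2755 values kept their side of the threshold, 10 passed it where the reported value did not, 41 no longer passed, and 0 reversed with a call. A value that missed the threshold in both settings was counted as kept, whatever its direction. At 90 days 1 of the 10 genes (Hspb1) passed in the mean of both treatments without the filter on low counts, against 0 with it. Over all genes tested in that contrast, 110 of 41945 passed without the filter and 5 of 18899 with it. The difference between times passed for 5 genes when the untreated mice alone entered the contrast, which rests on fewer mice, against 8 (Hsph1, Hspa8 and Hspa1a were lost).

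Leaving out 1 mouse at a time gave 7 to 8 called genes for untreated G93A against WT at 155 days, 7 to 9 for the difference between times and 4 to 7 for time in WT mice. It gave 8 throughout at 155 days with OKN-007 and for the mean of both treatments, and 0 in the remaining comparisons. Without the 3 G93A mice with a low caudal Hox score, an alternative chosen after seeing the data, 8 genes passed in each of the 3 genotype comparisons at 155 days. The G93A mice that remained, at 2.06 to 2.82, still scored lower than most WT mice (median 3.94), so this alternative does not make the genotypes alike in score. Without the 4 mice at 90 days with a low score, also chosen after seeing the data, 7 passed for the difference between times and 5 for time in WT mice. With the replicate block, which assumes a pairing that the design does not give, 8 genes passed for the difference between times and 6 for time in WT mice. There Hspb1 passed (adjusted p = 0.013, edgeR) and Hspa1b did not (0.057). Bag3 passed for time in WT mice by DESeq2 and with its size factors (adjusted p = 0.039 and 0.043). The cause of these changes was not tested.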
